A study of Homo sapiens with 19 samples.

Results

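The genes described here are 39 components of the DNA replication fork and of the chromatin assembly that follows it. They were taken from a fixed list of symbols, which was chosen with earlier results of these data known. Matched by the symbol column of each table, all 39 were found among the 19021 genes of the culture table, the 26955 of the siSCIRT table and the 28870 of the siEZH2 table. RNA-seq was made from MDA-MB-231, an established triple-negative human breast cancer line, in 19 libraries of 8 groups. The culture groups were adherent cells in DMEM with fetal calf serum, spheres kept for 16 h and spheres kept for 5 d, both on non-adherent plates in a serum-free medium, DMEM/F12 supplemented with EGF, FGF and B27 (n = 2 each). The siRNA groups were cells reverse transfected and then held in sphere medium for 48 h, with siSCIRT 1, siSCIRT 2 and a control siRNA called siNC (n = 3 each), and, in a table of its own, siEZH2 with its own siNC (n = 2 each). SCIRT is a long non-coding RNA and EZH2 is the histone methyltransferase of Polycomb repressive complex 2. The adherent cells and the spheres differed in serum and growth factors as well as in attachment, and the effects of these cannot be told apart. One line was used throughout, and whether replicates came from cultures of their own is not stated, so the spread behind each p-value may be technical.

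At a replication fork the CMG helicase, in which CDC45 and the GINS proteins join the MCM ring, unwinds the DNA, and RPA coats the single strands. Primase and DNA polymerase alpha start each new strand, replication factor C loads the sliding clamp PCNA, and polymerases epsilon and delta copy the leading and the lagging strand. FEN1, ribonuclease H2 and LIG1 process and join the lagging-strand pieces, and ASF1B and the CAF-1 subunits CHAF1A and CHAF1B place histones on the new DNA. Transcription of many of these genes is known to peak around the entry into S phase, under E2F factors. In RNA from whole cultures, fewer replicating cells and less RNA of a gene in each cell cannot be told apart.

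Values are normalized counts, that is reads per gene divided by a size factor for the library, and changes are log2 of the normalized count plus 1 with the standard error (SE) of the fit. Libraries held 6104222 to 14781941 reads for culture, 38635418 to 62218847 for siSCIRT and 27989577 to 38955312 for siEZH2. The fewest reads of any member were 11 for PRIM1, in 1 of the 16 h libraries, and the median over members and libraries was 177 in culture, 1023 in siSCIRT and 385 in siEZH2. A gene is called where the adjusted p of limma over all genes tested is under 0.05. VIM, the vimentin gene and a mesenchymal marker of the line, stood at 61241 and 62201 normalized counts in 16 h spheres, above the 33890.4 and 34383 in 5 d spheres and the 32153 and 31547 in adherent cells. Of the 7 markers of the line tested, 4 were called higher and 1 lower in 16 h spheres against adherent cells, the 1 being AXL, a receptor tyrosine kinase gene, with 2887 and 3044 in 16 h spheres against 8898 and 8989 in adherent cells. ESR1, the estrogen receptor gene, did not pass 1.51 in any culture library. It is 1 of 4 listed markers taken as low or absent in the line, and not all 4 were absent. Their sum ran from 807 to 890 in adherent cells, 618 to 655 in 16 h spheres and 837 to 843 in 5 d spheres. ERBB2, another of them, had 2006 and 2049 normalized counts with siNC in the siEZH2 table. Among markers of other cell types, DCN, which fibroblasts express, stood at 1014 and 999 in 16 h spheres against 0 and 0.61 in adherent cells, with 5 d spheres at 8.28 and 6.16. COL1A1, another fibroblast gene, stood at 67.2 and 52.5 in 16 h spheres against 10.6 and 14.6 in adherent cells, both called higher, while COL1A2 stayed at or under 2.44 in all 6 culture libraries. Not all markers of other cell types went this way. PDGFRB was higher in 5 d than in 16 h spheres (log2 1.11 ± 0.31, adjusted p = 0.00328). Between 5 d spheres and adherent cells PDGFRB was not called (0.03 ± 0.31), and ACTA2 was called in neither of these comparisons. Of the 12 such markers listed 7 were tested, with 2 higher and 3 lower in 16 h spheres, and their sum, mostly the keratins KRT8 and KRT18 of the line itself, ran from 6357 to 6609 in 16 h spheres against 6371 to 6481 in adherent cells. Mitochondrial RNA took 6.83% to 6.89% of the reads in adherent cells, 8.55% to 8.56% in 16 h spheres and 9.65% to 9.74% in 5 d spheres, and the part of either in the sphere results was not tested. SCIRT, listed as RP5-1120P11.1, had 121, 112 and 127 normalized counts with siSCIRT 1 and 159, 105 and 117 with siSCIRT 2, against 264, 287 and 256 with siNC. EZH2 had 275 and 278 with siEZH2 against 518 and 529 with siNC.

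Stretches of 160 bases around the start of 6 members are shown because their genes stand for the patterns described next: DTL and PCNA were called in every comparison with adherent cells or siNC, CLSPN differed most between the sphere times, POLE2 is a polymerase subunit, and TOP2A and POLD2 did not pass the test in 16 h spheres. They run 5′ to 3′ on the strand of the gene, from 150 bases before to 10 after the RefSeq start in GRCh38.p14, and capitals mark E2F words and CCAAT boxes. An E2F word is TTTGGCGC, TTTCGCGC, TTTCCCGC or TTTGCCGC, a CCAAT box is CCAAT, and each was searched on both strands, so it may stand as its reverse complement. The windows are chr1:212035598-212035757 on the plus strand for DTL and, on the minus strand, chr20:5126613-5126772 for PCNA, chr1:35769969-35770128 for CLSPN, chr14:49688205-49688364 for POLE2, chr17:40417887-40418046 for TOP2A and chr7:44123539-44123698 for POLD2.
DTL: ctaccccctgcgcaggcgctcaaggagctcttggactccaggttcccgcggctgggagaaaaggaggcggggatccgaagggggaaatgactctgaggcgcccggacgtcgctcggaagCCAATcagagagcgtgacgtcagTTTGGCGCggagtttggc
PCNA: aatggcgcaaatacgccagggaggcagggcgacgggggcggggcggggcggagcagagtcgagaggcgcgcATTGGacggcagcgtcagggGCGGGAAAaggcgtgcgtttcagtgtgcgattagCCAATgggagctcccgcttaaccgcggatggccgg
CLSPN: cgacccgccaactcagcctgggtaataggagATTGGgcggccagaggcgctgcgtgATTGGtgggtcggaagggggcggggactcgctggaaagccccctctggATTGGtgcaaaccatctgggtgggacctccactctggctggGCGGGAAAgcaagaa
POLE2: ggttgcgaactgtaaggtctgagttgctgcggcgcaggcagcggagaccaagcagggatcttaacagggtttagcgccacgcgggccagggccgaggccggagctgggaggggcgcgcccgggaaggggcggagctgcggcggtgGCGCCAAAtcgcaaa
TOP2A: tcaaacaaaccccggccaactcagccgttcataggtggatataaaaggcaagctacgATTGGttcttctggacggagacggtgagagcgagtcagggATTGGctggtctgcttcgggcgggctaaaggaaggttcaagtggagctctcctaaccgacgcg
POLD2: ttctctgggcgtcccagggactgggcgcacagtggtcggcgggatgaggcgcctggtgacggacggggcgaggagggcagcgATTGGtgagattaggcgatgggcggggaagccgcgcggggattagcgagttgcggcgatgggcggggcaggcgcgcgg

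RefSeq promoters of 300 bases, from 250 before to 50 after the start, were at hand for 34 of the 39 members. An E2F word lay in 12 of them (35.3%), against 908 of all 27305 promoters (3.33%), and these were PCNA, RFC3, LIG1, GINS1, GINS2, GINS3, POLA1, POLA2, POLE, POLE2, CLSPN and DTL. A CCAAT box lay in 21 members (61.8%) against 35.7% of all promoters, and the GC box GGGCGG in 26 (76.5%) against 44.6%. The GC box can share bases with the reverse complement of an E2F word, as in PCNA. The cell cycle homology word TTTGAA lay in 2 members, ASF1B and TOP2A (5.88%), against 15.4% of all. A word is a match of letters and not a binding site, and its absence says only that these letters are not in the window. Members with and without an E2F word had close medians, for example -1.59 and -1.34 in 16 h spheres against adherent cells, and 0.46 each with siEZH2.

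Most replication fork genes were lower in 16 h spheres than in adherent cells. Of the 39 members 36 fell, none rose and 3 did not pass the test (POLD2, RPA3 and TOP2A), where 26.5% of the 13789 genes tested were called lower and 27.4% higher. The median change of the members was -1.37, against -0.01 over all genes, and 26 members fell by at least 1 on the log2 scale, as 8.6% of all genes did. In 38 members both 16 h libraries lay below both adherent libraries, which held for 38.6% of all genes.

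**Figure D1:**
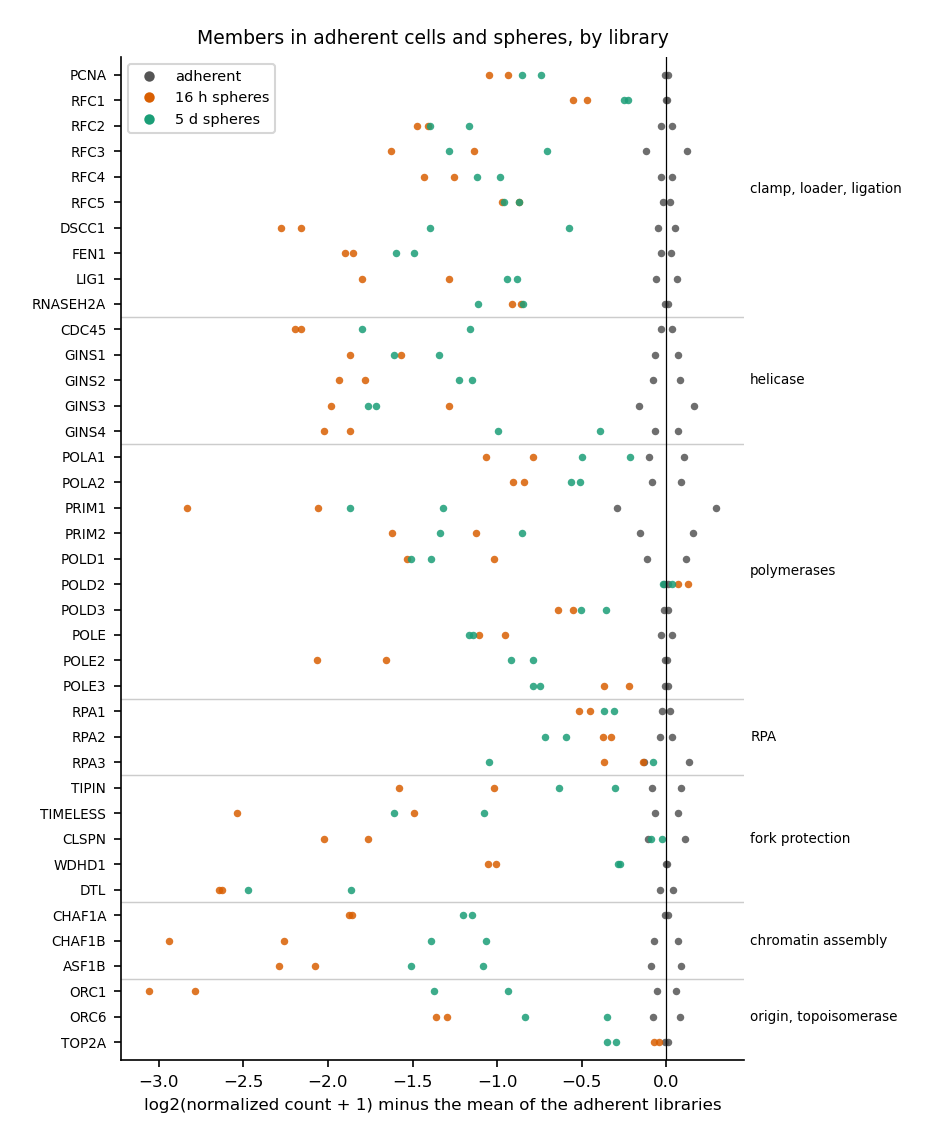
Each point is 1 library of the culture table; the horizontal axis gives log2(normalized count + 1) minus the mean of the adherent libraries, and members run down the page by role. The 16 h spheres (orange) lie farthest left for most members, down to about -3 for ORC1, the 5 d spheres (green) mostly lie between them and the adherent cells (grey), and POLD2 and TOP2A stay near 0.

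The largest falls were those of an origin factor, of a ubiquitin ligase subunit and of a histone chaperone. ORC1, the subunit of the origin recognition complex whose level is known to cycle, had 17.1 and 20.8 normalized counts in 16 h spheres, against 143 and 155 in adherent cells. DTL, which brings proteins bound to PCNA on chromatin to a ubiquitin ligase and whose promoter is printed above, had 73.5 and 74.5 in 16 h spheres against 478 and 454 in adherent cells. CHAF1B had 53.3 and 33.0 in 16 h spheres against 247 and 273 in adherent cells. In all 3 genes the groups stood far apart, and DTL was almost equal in both 16 h libraries. The log2 changes were -2.92 ± 0.27 (adjusted p = 5.34e-12), -2.64 ± 0.18 (adjusted p = 1.28e-15) and -2.60 ± 0.21 (adjusted p = 3.89e-13), which are falls of 7.58-fold, 6.22-fold and 6.06-fold.

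All 10 genes of the clamp, its loaders and the joining of lagging-strand pieces fell, with a median of -1.36. PCNA had 678 and 627 normalized counts in 16 h spheres against 1304 and 1291 in adherent cells, a fall of 1.99-fold (log2 -0.99 ± 0.07, adjusted p = 5.69e-15). Replicates lay close together in either group and the groups did not overlap. The loader subunits RFC2 to RFC5 changed by -1.44, -1.38, -1.34 and -0.92, while RFC1, the large subunit, changed by -0.51. DSCC1, of the alternative loader that also serves sister chromatid cohesion, changed by -2.22, FEN1 by -1.88 and LIG1 by -1.54. RFC1 thus had the smallest fall among the loader subunits, and each of these changes passed the test.

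The helicase genes fell together, 5 of 5 with a median of -1.86 and a range of -2.18 to -1.63. CDC45 had 28.8 and 28.1 normalized counts in 16 h spheres against 135 and 129 in adherent cells, a fall of 4.52-fold (adjusted p = 1.16e-08), and its groups did not overlap. The genes grouped here as fork protection are TIPIN, TIMELESS, CLSPN, WDHD1 and DTL, of which DTL is the ubiquitin ligase subunit named above. All 5 fell, with DTL at the far end and WDHD1, which links the helicase to polymerase alpha, at -1.03. CLSPN, the adaptor that carries the checkpoint signal from ATR to CHEK1, had 82.1 and 68.4 in 16 h spheres against 303 and 260.0 in adherent cells (log2 -1.89 ± 0.16, adjusted p = 3.44e-13). The 3 genes of histone placement fell most as a group, with a median of -2.19.

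The polymerase subunits were uneven, with 9 of 10 lower and changes from -2.45 to 0.10. PRIM1, the catalytic subunit of primase, had 11.7 and 20.8 normalized counts in 16 h spheres against 73.2 and 110.2 in adherent cells, a change of -2.45 ± 0.35 (adjusted p = 1.77e-07). Relative to their mean, its replicates were the most scattered of any member in adherent cells, and the groups still did not overlap. POLE2, the second subunit of polymerase epsilon, changed by -1.86, whereas POLE3, its histone-fold subunit, changed by -0.30. POLD2, the second subunit of polymerase delta, had 1121 and 1172 in 16 h spheres against 1061 and 1080.1 in adherent cells, a difference of 0.10 ± 0.06 that did not pass the test (adjusted p = 0.174).

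The RPA genes and TOP2A were at the small end of the changes. RPA1, the large RPA subunit, had 884 and 925 normalized counts in 16 h spheres against 1244 and 1288 in adherent cells and RPA2 changed by -0.35, both called, and RPA3 had a difference of -0.25 ± 0.25 that was not (adjusted p = 0.42). TOP2A, the topoisomerase that untangles sister DNA molecules and acts into mitosis, had 1398 and 1372 in 16 h spheres against 1452 and 1435 in adherent cells, a difference of -0.06 ± 0.06 (adjusted p = 0.382). Both 16 h libraries of TOP2A lay just below the adherent ones. Without adherent replicate 1 the call of POLA2 was lost (adjusted p = 0.0557), and the other 35 calls held whichever library was left out.

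After 5 d most members were still lower than in adherent cells. Of the 39 members 34 fell, none rose and 5 did not pass the test (POLA2, POLD2, RPA3, TIPIN and CLSPN), where 28.9% of all genes were called lower and 26.3% higher. The median change was -0.98 against -0.02 over all genes, and 17 members fell by at least 1 on the log2 scale, as 6.95% of all genes did. The groups did not overlap for 36 members, which was so in this direction for 39.9% of all genes.

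DTL fell most at 5 d, to 127 and 83.2 normalized counts in 5 d spheres, against 478 and 454 in adherent cells, followed by GINS3, a helicase subunit, with 59.0 and 57.0 in 5 d spheres against 175 and 219.8 in adherent cells, and PRIM1 with 23.8 and 35.4 in 5 d spheres against 73.2 and 110.2 in adherent cells. In none of the 3 genes did the groups overlap. The log2 changes were -2.17 ± 0.18 (adjusted p = 4.11e-13), -1.74 ± 0.23 (adjusted p = 4.28e-08) and -1.60 ± 0.35 (adjusted p = 0.000184). CLSPN had 276 and 263 in 5 d spheres, against 303 and 260.0 in adherent cells, with overlapping groups, and its difference of -0.06 ± 0.16 did not pass the test (adjusted p = 0.774). TOP2A, not called at 16 h, had 1176 and 1134 normalized counts in 5 d spheres against 1452 and 1435 in adherent cells and fell by 0.32 (SE 0.06, adjusted p = 5.91e-06). The calls of 8 members were lost when 1 of the adherent or 5 d libraries was left out: RFC1, DSCC1, GINS4, POLA1, POLD3, TIMELESS, WDHD1 and ORC6.

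Set against 16 h spheres directly, 5 d spheres had 21 members higher, 3 lower and 15 that did not pass the test, where 22.8% of all genes were called higher and 25.5% lower. The median difference was 0.34, against 0.00 over all genes. The 3 genes of histone placement all rose (median 0.89), as did 4 of the 5 of fork protection (median 0.75), 3 of the 5 of the helicase (median 0.67) and 5 of the 10 of the clamp and joining group (median 0.28). Of the 10 polymerase subunits 3 rose, POLA1, PRIM1 and POLE2, and POLE3 fell.

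CLSPN rose most, with 276 and 263 normalized counts in 5 d spheres against 82.1 and 68.4 in 16 h spheres, or 3.57-fold (log2 1.83 ± 0.16, adjusted p = 1.51e-12). ORC1 had 77.6 and 57.0 in 5 d spheres against 17.1 and 20.8 in 16 h spheres (log2 1.77 ± 0.27, adjusted p = 7.84e-07), and CHAF1B had 98.3 and 123 in 5 d spheres against 53.3 and 33.0 in 16 h spheres (log2 1.37 ± 0.21, adjusted p = 1.6e-06). The 5 d libraries of all 3 genes lay above both 16 h libraries, and those of ORC1 and CHAF1B lay below both adherent ones. DTL had 127 and 83.2 in 5 d spheres against 73.5 and 74.5 in 16 h spheres and rose by 0.47 ± 0.18 (adjusted p = 0.0275), and its 5 d libraries stayed far below the adherent ones.

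The 3 members lower at 5 d than at 16 h were POLE3, RPA2 and TOP2A. POLE3 had 536 and 550.0 normalized counts in 5 d spheres against 715 and 793 in 16 h spheres (log2 -0.47 ± 0.08, adjusted p = 2.74e-06). RPA2, the phosphorylated RPA subunit, had 458 and 421 in 5 d spheres against 532 and 551 in 16 h spheres (log2 -0.30 ± 0.09, adjusted p = 0.0038), and TOP2A had 1176 and 1134 in 5 d spheres against 1398 and 1372 in 16 h spheres (log2 -0.26 ± 0.06, adjusted p = 0.00016). Groups did not overlap in any of them. Over the 3 culture groups, 19 members were lower at both sphere times and higher at 5 d than at 16 h, 12 were lower at both times with no call between them, and POLE3 and RPA2 were called lower at each step. POLD2 and RPA3 were called in none of the 3 comparisons, which share their libraries. Of the 24 calls between the sphere times 9 were lost when 1 library was left out (LIG1, PCNA, CDC45, GINS2, PRIM1, RPA1, TIPIN, DTL and ORC6), and DTL then ranged down to 0.17 (without 5 d replicate 1).

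Related genes outside the list moved alongside. Of 13 genes of origin licensing, which load the helicase ring, 9 fell in 16 h spheres, none rose and the median was -0.97, with CDC6 at -3.07 ± 0.11 (adjusted p = 9.74e-24) and MCM3 at -1.58 ± 0.06 (adjusted p = 1.32e-21). Of 9 genes of origin firing 8 fell, led by MCM10 at -2.88, and of 13 genes of nucleotide supply 9 fell and 1 rose, with TYMS, the thymidylate synthase, at -2.02 and TK1, thymidine kinase, at -2.07. Of 20 other fork genes tested 15 fell and 3 rose, among them TOP1, the main relaxing topoisomerase, at 0.73 ± 0.04 (adjusted p = 7.11e-17). Of 16 genes of the cell cycle 13 fell and 1 rose: CDKN1A, the p21 inhibitor of cyclin-dependent kinases, had 3899 and 4228 normalized counts in 16 h spheres against 755 and 748 in adherent cells (log2 2.43 ± 0.05, adjusted p = 3.25e-31). MKI67, the gene of the Ki-67 antigen, had 1508 and 1550.1 in adherent cells, 878 and 934 at 16 h and 1779 and 1761 at 5 d, and was higher at 5 d than at 16 h by 0.97 ± 0.06 (adjusted p = 2.21e-17). It stood above both adherent libraries at 5 d, which no member of the fork list did. Other cell cycle genes were still called lower at 5 d than in adherent cells, among them E2F1 (-2.29), CDK1 (-1.41) and CCNB1 (-1.13). Of that list only MKI67 and CDKN1A (1.13) were called higher at 5 d than in adherent cells.

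Most fork genes were lower with either siRNA against SCIRT than with siNC. With siSCIRT 1, 34 of the 39 members fell and 5 did not pass the test, where 5.56% of the 16607 genes tested were called lower and 4.63% higher. With siSCIRT 2, 33 fell and 6 did not pass, where 5.05% of all genes were called lower and 4.49% higher. The median changes were -0.57 and -0.52, against 0.01 over all genes for either, and no member fell by 1 or more on the log2 scale. The 2 comparisons share the siNC libraries, and the columns of siSCIRT 1 were assigned by inference, since only those of siSCIRT 2 carry a number.

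**Figure D2:**
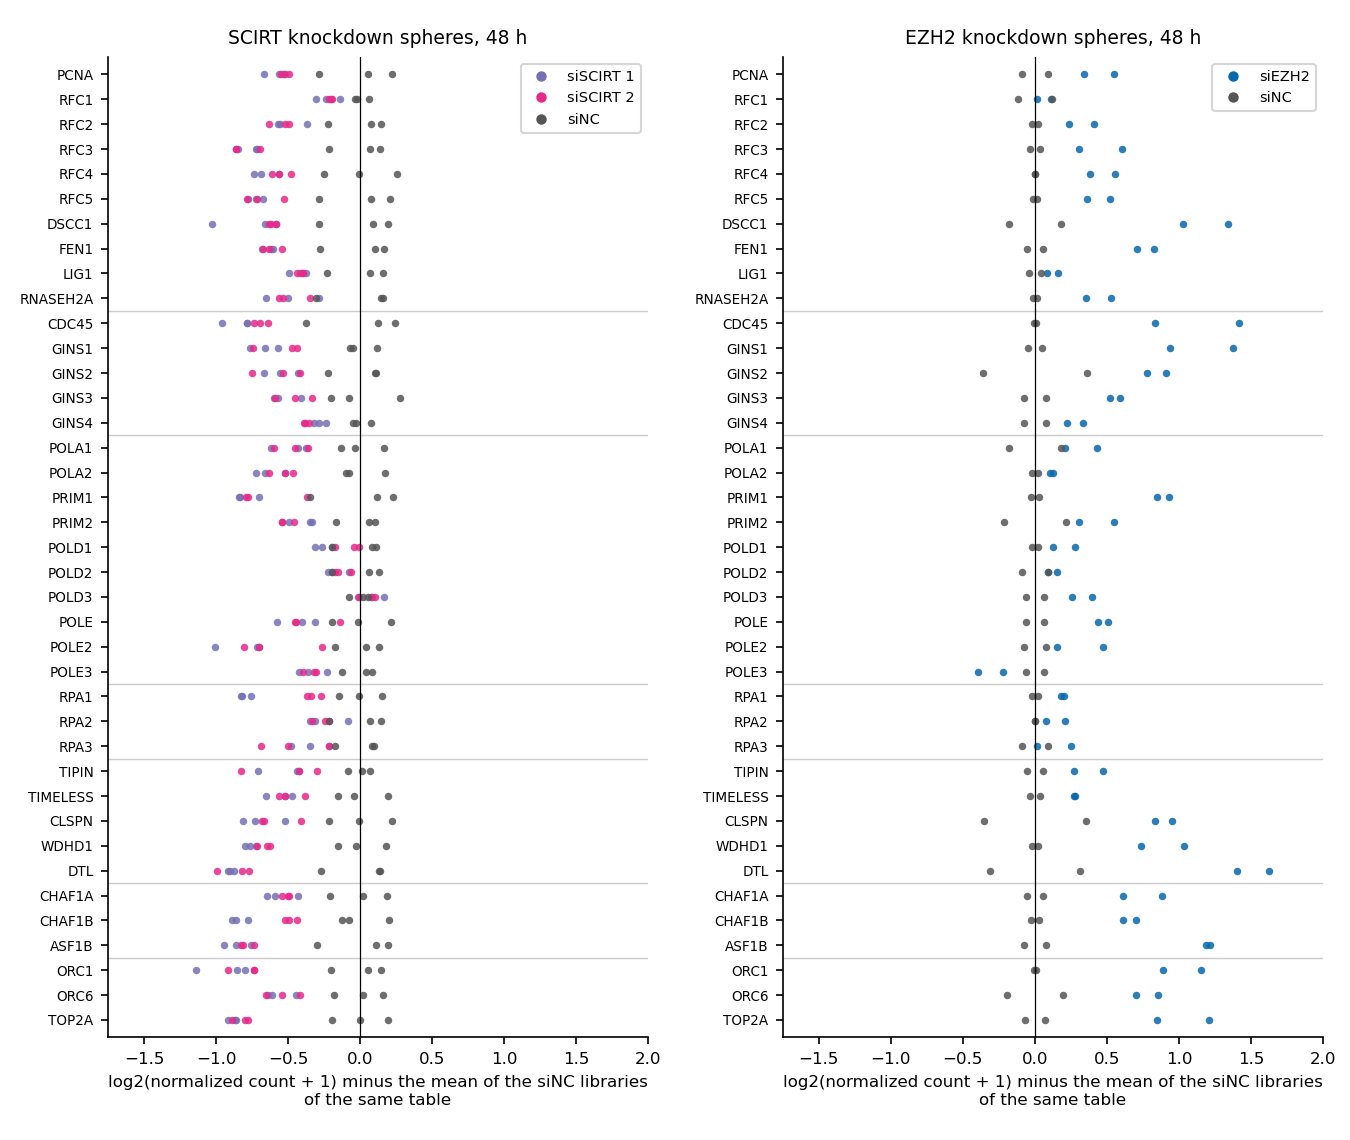
Each point is 1 library; the horizontal axis gives log2(normalized count + 1) minus the mean of the siNC libraries of the same table, with the siSCIRT table on the left and the siEZH2 table on the right, and members run down the page by role. Nearly all siSCIRT points lie below the 3 siNC points, most siEZH2 points lie above both siNC points, and POLD2 and POLD3 stay near 0 on the left.

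DTL, ORC1 and TOP2A fell most over the mean of both siRNAs. DTL had 819, 835 and 811 normalized counts with siSCIRT 1 and 771, 897 and 869 with siSCIRT 2, against 1681, 1269 and 1691 with siNC (log2 -0.88 ± 0.09, adjusted p = 1.96e-05). ORC1 had 266, 337 and 323 with siSCIRT 1 and 310.0, 353 and 352 with siSCIRT 2, against 610.1, 510.1 and 649 with siNC (log2 -0.86 ± 0.11, adjusted p = 8.09e-05). TOP2A, which had not passed the test between 16 h spheres and adherent cells, had 12217, 12242 and 11800.2 with siSCIRT 1 and 12048, 13011 and 12798 with siSCIRT 2, against 22246, 19491 and 25456 with siNC (log2 -0.85 ± 0.07, adjusted p = 4.08e-06). In these 3 genes all 6 knockdown libraries lay below all 3 siNC libraries.

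Over that mean 36 members fell, none rose and POLD1, POLD2 and POLD3 did not pass the test, where 7.58% of all genes were called lower and 6.82% higher. The groups did not overlap for 33 members, against 9.67% of all genes in this direction. All 10 genes of the clamp and joining group fell, with a median of -0.58. PCNA had 3580.0, 3487 and 3244 normalized counts with siSCIRT 1 and 3561, 3658 and 3513 with siSCIRT 2, against 5353, 4225 and 6007 with siNC, a fall of 1.47-fold (adjusted p = 0.000522). RFC3, a small loader subunit, had the largest fall of that group, -0.78 ± 0.10 (adjusted p = 7.69e-05), and RFC1 the smallest, -0.22 ± 0.06 (adjusted p = 0.0159).

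The 5 helicase genes fell by 0.33 to 0.77, from GINS4 to CDC45, whose counts were 447, 447 and 395 with siSCIRT 1 and 475, 462 and 494 with siSCIRT 2, against 841, 595 and 913 with siNC (adjusted p = 0.000352). The 5 genes of fork protection fell with a median of -0.64 and the 3 of histone placement with a median of -0.66. ASF1B, the histone chaperone that hands H3 and H4 to CAF-1, had 1632, 1521 and 1434 with siSCIRT 1 and 1653, 1574 and 1555 with siSCIRT 2, against 2975, 2240.0 and 3151 with siNC (log2 -0.82 ± 0.09, adjusted p = 3.46e-05). Of the 10 polymerase subunits 7 fell, with PRIM1 at -0.72, and the 3 left were the subunits of polymerase delta in the list. POLD2 had 4679, 4319 and 4245 with siSCIRT 1 and 4741, 4454 and 4387 with siSCIRT 2, against 5412, 4326 and 5157 with siNC, and its libraries overlapped (log2 -0.15 ± 0.07, adjusted p = 0.187).

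RPA1 was the member in which the siRNAs stood farthest apart. It had 4417, 4637 and 4437 normalized counts with siSCIRT 1, against 6076, 6504 and 6197 with siSCIRT 2 and 7789.7, 7080.4 and 8709.6 with siNC. All libraries of siSCIRT 1 lay below all of siSCIRT 2, as in 3.77% of all genes, and those of siSCIRT 2 below all of siNC. Against siNC the changes were -0.80 ± 0.07 (adjusted p = 1.38e-05) and -0.32 ± 0.07 (adjusted p = 0.011). Between siSCIRT 1 and siSCIRT 2 the difference was -0.48 ± 0.07, which did not pass the test (adjusted p = 0.13). The call depended on the fit, since the adjusted p was 0.0459 with only the compared groups, 0.039 with no filter, and between 7.88e-05 and 0.828 over all alternatives. In that comparison, added after the values of RPA1 were seen, limma on all 3 groups called 0 of the 39 members and 0 of 16607 genes, while 2 members and 451 genes (2.72%) had an unadjusted p under 0.05. edgeR called 0 members and 0 genes and DESeq2 called 1 member, RPA1 (adjusted p = 7.88e-05), and 6 genes in all.

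The siNC libraries of the siSCIRT table differed together in these genes. In siNC replicate 2, 38 members lay below the siNC mean, by a median of 0.20, and in siNC replicate 3 all 39 lay above it, by a median of 0.16, while the medians over all genes stayed within 0.01 of 0. The knockdown libraries lay lower than either, at medians from -0.66 to -0.46. Without siNC replicate 3 the members called lower came to 20 with siSCIRT 2 (435 genes in all), 24 with siSCIRT 1 and 29 over the mean, and without siNC replicate 2 to 34, 37 and 38. Apart from the first, the calls over all genes are not given beside these counts, so they show only how the member calls moved.

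**Figure D3:**
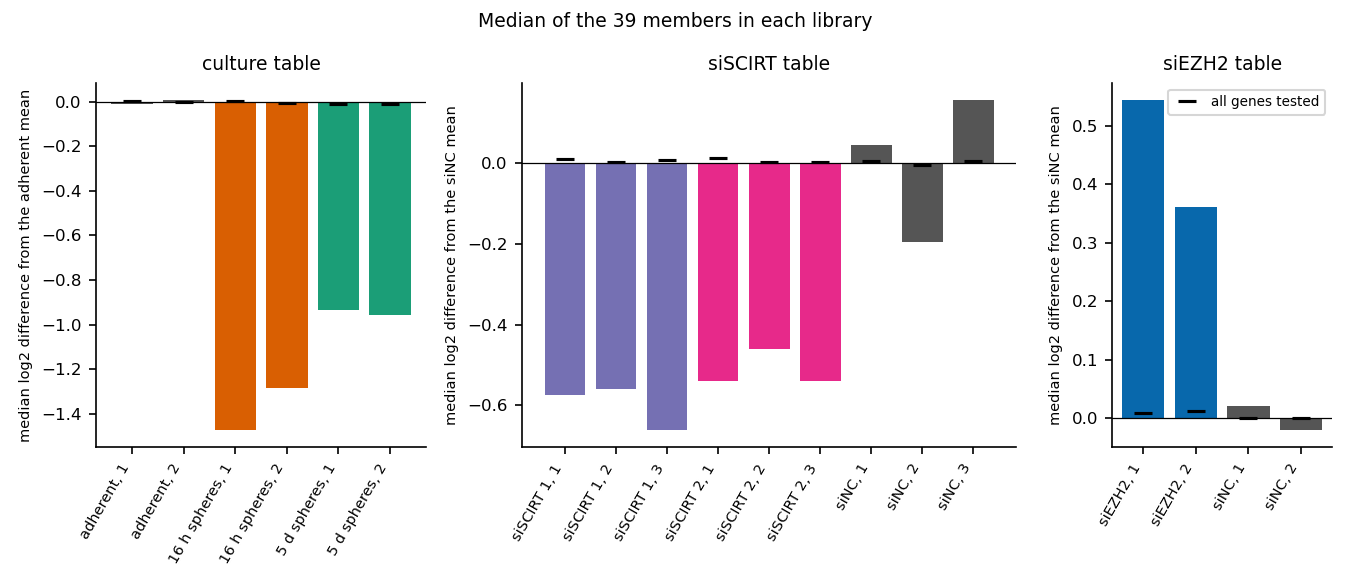
Bars give, for each library, the median over the 39 members of log2(normalized count + 1) minus the mean of the control group of its table, and black marks the median over all genes tested. The 16 h spheres lie at -1.47 and -1.28, the 5 d spheres at -0.93 and -0.96, the siSCIRT libraries between -0.66 and -0.46 and the siEZH2 libraries at 0.55 and 0.36, while the siNC libraries of the siSCIRT table range from -0.20 to 0.16.

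Of the related lists, those of origin licensing, origin firing, nucleotide supply and the cell cycle had most of their genes called lower. Over the mean of both siRNAs 10 of 13 genes of origin licensing fell and none rose (median -0.50), with MCM3 at -0.72 ± 0.07 (adjusted p = 1.7e-05), and 8 of 9 of origin firing fell (median -0.52), with MCM10 at -0.86 ± 0.10 (adjusted p = 3.54e-05). Of 21 other fork genes 8 fell and 13 did not pass the test, of 17 other histone chaperone genes 6 fell, 1 rose (ATRX, 0.28 ± 0.07, adjusted p = 0.0131) and 10 did not pass, of 13 of nucleotide supply 7 fell and 1 rose (RRM2B, named after its value was seen), and of 16 of the cell cycle 13 fell. MKI67 had 7786, 9755 and 8620.4 normalized counts with siSCIRT 1 and 8424, 9050.5 and 11116 with siSCIRT 2, against 16460.2, 15808 and 19797 with siNC (log2 -0.93 ± 0.10, adjusted p = 3.23e-05). EZH2 itself fell by 0.51 (SE 0.07, adjusted p = 0.000143). Mitochondrial RNA took 5.76% to 6.11% of the reads with siSCIRT 1 and 5.54% to 6.11% with siSCIRT 2, against 6.11% to 6.60% with siNC, and 5 of 13 mitochondrial genes were called lower over the mean. Its part in the members' fall was not tested. The summed markers of other cell types ran from 40856 to 47896 normalized counts with siSCIRT 1 and 39016 to 44230 with siSCIRT 2, against 36938 to 45280 with siNC, and overlapped.

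EZH2 knockdown went the other way. Of the 39 members 20 rose, none fell and 19 did not pass the test, where 3.9% of the 15823 genes tested were called higher and 2.94% lower. The median difference was 0.45, against 0.01 over all genes, and 7 members rose by at least 1 on the log2 scale, as 0.588% of all genes did. In 35 members both siEZH2 libraries lay above both siNC libraries, against 25.3% of all genes, and in POLE3 they lay below, as in 22.6% of all genes.

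DTL rose most, with 347 and 297 normalized counts with siEZH2 against 139 and 89.9 with siNC, or 2.86-fold (log2 1.52 ± 0.17, adjusted p = 1.5e-15). ASF1B had 548 and 536 with siEZH2 against 248 and 223 with siNC (log2 1.20 ± 0.15, adjusted p = 4.32e-13), and DSCC1 had 121 and 96.8 with siEZH2 against 53.5 and 41.3 with siNC (log2 1.18 ± 0.23, adjusted p = 1.5e-05). In all 3 genes both siEZH2 libraries lay well above both siNC libraries. The other members that rose by at least 1 on the log2 scale were GINS1, CDC45, TOP2A and ORC1. TOP2A had 2547 and 1987 with siEZH2 against 1159 and 1052 with siNC (log2 1.03 ± 0.12, adjusted p = 5.91e-14).

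By role, the 3 genes of histone placement and the origin and topoisomerase genes (ORC1, ORC6 and TOP2A) all rose, with medians of 0.75 and 1.02. Of the 5 helicase genes 3 rose, CDC45, GINS1 and GINS2, and of the 5 of fork protection 3 rose, CLSPN, WDHD1 and DTL. Of the clamp and joining group 6 of 10 rose, with PCNA at 1910.3 and 1654 normalized counts with siEZH2 against 1389 and 1224 with siNC (log2 0.45 ± 0.12, adjusted p = 0.0083) and FEN1 at 1369 and 1259 with siEZH2 against 800.1 and 743 with siNC (log2 0.77 ± 0.13, adjusted p = 2.76e-07). PCNA was higher in both siEZH2 libraries by a margin close to the gap between them.

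Of the 10 polymerase subunits only PRIM1, at 0.89 ± 0.26 (adjusted p = 0.0142), and POLE, the catalytic subunit of polymerase epsilon, at 0.47 ± 0.13 (adjusted p = 0.0101), passed the test. None of the 3 RPA genes did, with differences of 0.19, 0.14 and 0.13. POLE3 had 1767 and 1562 normalized counts with siEZH2 against 1971 and 2151 with siNC, a difference of -0.31 ± 0.12 (adjusted p = 0.107). POLD2 had 2485 and 2606 with siEZH2 against 2198 and 2489.6 with siNC, with overlapping groups. Only 10 of the 20 calls held whichever library was left out (DSCC1, FEN1, CDC45, GINS1, WDHD1, DTL, CHAF1A, ASF1B, ORC1 and TOP2A), and 12 members were called without siNC replicate 1 and 11 without siNC replicate 2. With eBayes run without a trend and not robust, limma called 0 members and 0 of all genes in this table, with 25 members and 2471 genes at an unadjusted p under 0.05. By contrast edgeR called 20 members and DESeq2 14, and the share of all genes called by either is not given beside these counts.

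Among the related lists 5 of 13 genes of origin licensing, 4 of 9 of origin firing, 4 of 21 other fork genes and 4 of 13 of nucleotide supply rose with siEZH2 and none fell. RRM2, the small subunit of ribonucleotide reductase, changed by 1.10 ± 0.14 (adjusted p = 1.46e-11) and MCM10 by 1.51 ± 0.21 (adjusted p = 1.55e-10). Of 16 genes of the cell cycle 9 rose, with MKI67 at 1406 and 1368 normalized counts with siEZH2 against 726 and 559.6 with siNC (log2 1.12 ± 0.13, adjusted p = 2.55e-15). Mitochondrial RNA took 4.50% of the reads with siEZH2 and 4.45% to 4.93% with siNC. Of the 9 markers of other cell types tested 1 was called higher, LYZ, the lysozyme gene of myeloid cells, with 164 and 170.1 normalized counts with siEZH2 against 109 and 87.1 with siNC (log2 0.77 ± 0.19, adjusted p = 0.00199). The sum of the 18 such markers listed ran from 20734 to 22036 with siEZH2 against 21210 to 23043 with siNC, and their part in the result was not tested.

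The difference between both responses was tested in 1 fit over the 13 siRNA libraries, each response against the siNC of its own table. It was positive for all 39 members and called for 33, where 7.75% of the 16462 genes tested were called in this direction and 5.93% in the other, and its median was 1.01, against -0.01 over all genes. The knockdowns were sequenced and normalized as separate tables, and a difference between the experiments beyond the siRNA cannot be told apart. The normalized counts of siNC spheres differed between the tables in these genes. Mean normalized counts with siNC in the siSCIRT and siEZH2 tables were 22398 and 1105 for TOP2A and 2789 and 235 for ASF1B. They were 5195 and 1306 for PCNA and 4965 and 2344 for POLD2. The siNC libraries held 57218620 to 62218847 reads in the siSCIRT table and 34296110 to 37557787 in the siEZH2 table. Normalized counts of the tables are thus not on 1 scale, and the gap over all genes is not given. The part of these unlike siNC counts in the opposite responses was not tested. DTL led with 2.40 ± 0.20 (adjusted p = 8.01e-08), followed by ASF1B with 2.02 ± 0.15 (adjusted p = 1.17e-08) and CDC45 with 1.89 ± 0.23 (adjusted p = 4.89e-06). CDC45 had 204 and 136 normalized counts with siEZH2 against 75.5 and 76.1 with its siNC.

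**Figure D4:**
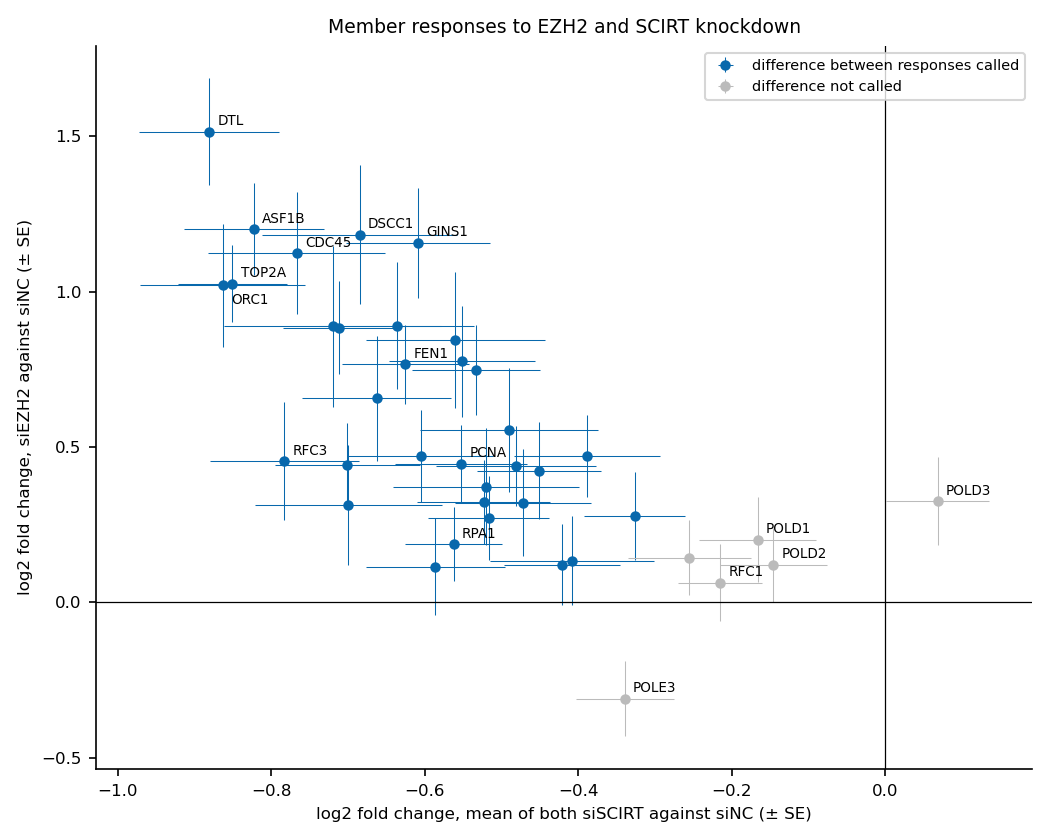
Each point is 1 member; the horizontal axis gives its log2 fold change over the mean of both siSCIRT and the vertical axis its log2 fold change with siEZH2, each against the siNC of its own table, with bars of 1 SE. Nearly all points lie in the upper left, DTL farthest at -0.88 and 1.52, POLE3 is the only member below 0 on the vertical axis and POLD3 the only one above 0 on the horizontal.

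In 19 members the calls were lower with each siSCIRT, higher with siEZH2 and called for the difference, and in 12 they were lower with each siSCIRT with no call for siEZH2 but a called difference. The 6 members with no called difference were RFC1, POLD1, POLD2, POLD3, POLE3 and RPA2. POLE3 had the smallest, 0.03 ± 0.12 (adjusted p = 0.908), being lower with siSCIRT (called) and lower with siEZH2 (not called). POLD1, POLD2, POLD3 and RPA2 were called with neither siSCIRT alone nor with siEZH2. RPA3 passed narrowly (adjusted p = 0.0496) and lost its call in 9 of the 13 fits that each left out 1 library, while LIG1 and POLA1 lost theirs in 1 fit each, without a siNC library of the siEZH2 table.

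**Figure D5:**
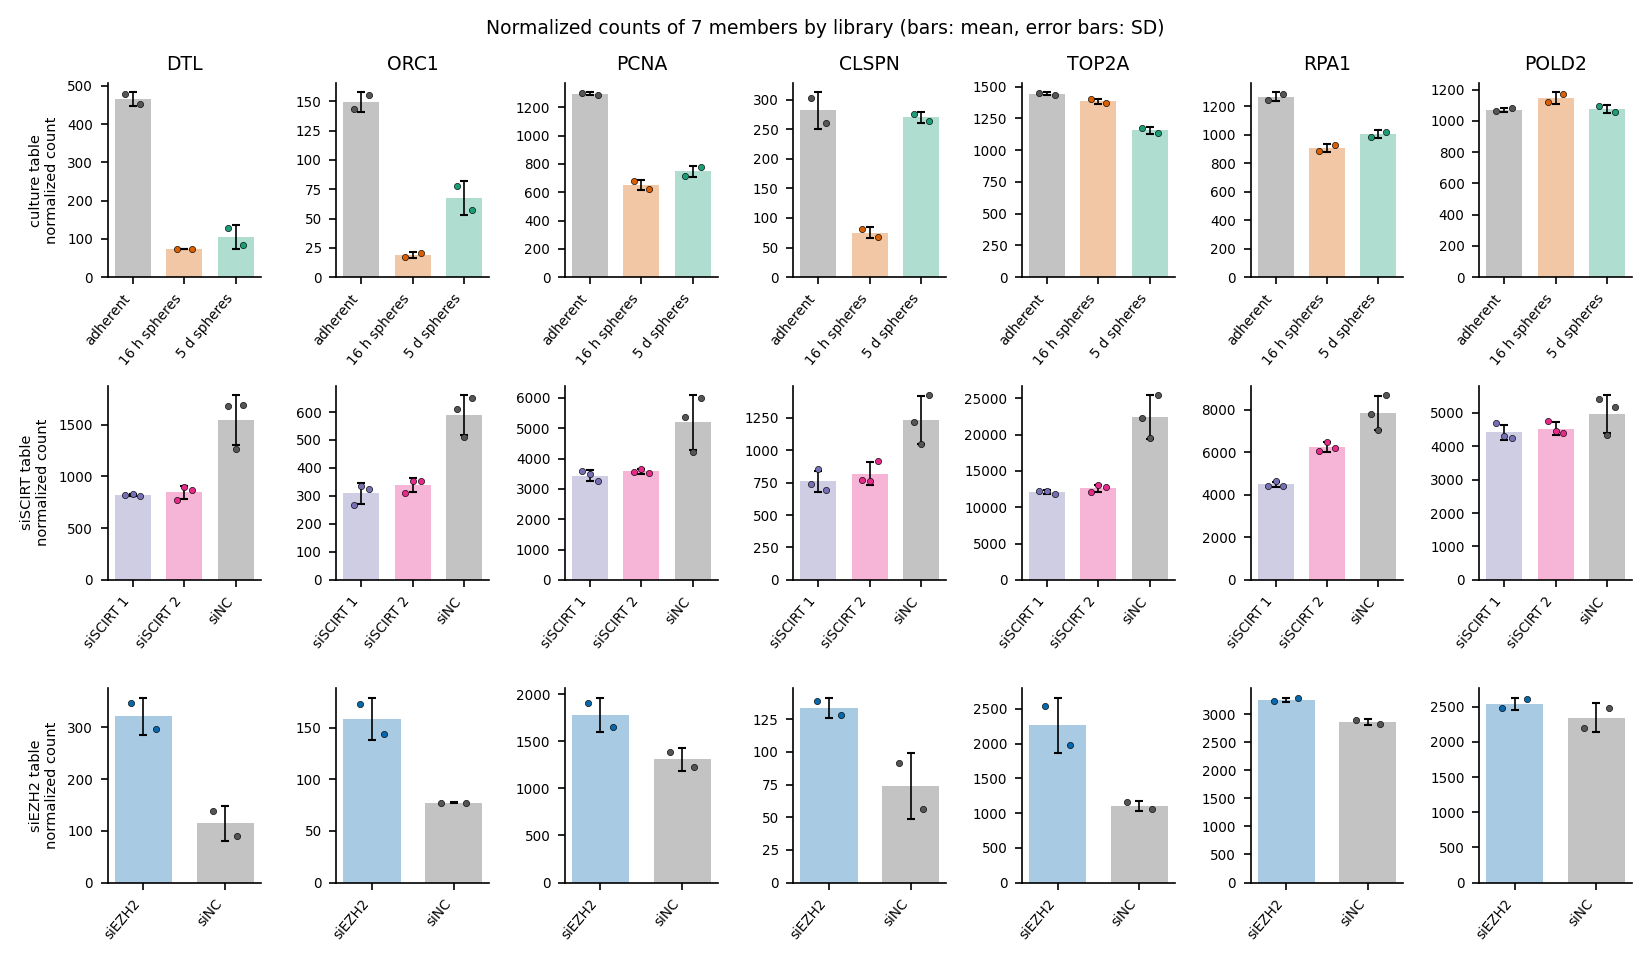
Normalized counts of 7 members (columns) in the culture, siSCIRT and siEZH2 tables (rows), with 1 point per library, bars at the group mean and error bars of 1 SD; each panel has its own axis from 0. DTL and ORC1 differ between the groups of every table, TOP2A is nearly level in adherent cells and 16 h spheres but is lower with both siSCIRT and higher with siEZH2, RPA1 is lower with siSCIRT 1 than with siSCIRT 2, and POLD2 changes little anywhere.

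POLD2 was the 1 member that passed the test in none of the 8 comparisons in which limma called any member, and its means were 1071 ± 13.5, 1147 ± 36.2 and 1077 ± 27.9 normalized counts in adherent cells, 16 h spheres and 5 d spheres (SD, n = 2 each). DTL was called in all 8. Read counts of some members can include reads of other genes. By GENCODE 29, exons of POLA2, RNASEH2A, TIPIN and PRIM1 share 35.1%, 30.8%, 21.0% and 14.8% of their bases with a gene on the same strand. Those of GINS4 and GINS3 share 21.2% and 10.9% with an antisense gene, which the library kit, keeping no strand, cannot separate, and PCNA, RFC3, RFC5, FEN1, POLD2 and RPA2 have named pseudogenes.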

How the data were processed

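RNA-seq of 19 libraries was analysed. The members and the related gene lists were chosen with earlier results of these data known. Per the labels' protocols, RNA was extracted with TRI Reagent and the TruSeq RNA v2 kit, which keeps no strand information, gave the libraries. Per the submitters' processing notes, CASAVA 1.4, TopHat2, Partek and the hg19 build were used. The read counter, its annotation and the DESeq2 version were not given in the sources at hand.

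The culture and siSCIRT tables were deposited as log2 values that behave as variance-stabilized counts of DESeq2, and these were turned back exactly into normalized counts. The siEZH2 table was deposited by the authors as a linear signal, counts divided by a size factor. Whole reads were recovered for 100% of the values of all 19 libraries, within a tolerance of 0.05 reads. The columns si1 to si3 of the siSCIRT table were taken as siSCIRT 1 by inference, since the other siRNA columns name siSCIRT 2. No library was a copy of another: replicates differed by more than counting noise. The margin was smallest in culture, where the median chi-square ratio of a replicate pair was 2.01 to 2.03. It was 3.32 to 8.91 in siSCIRT and 4.42 to 5.10 in siEZH2.

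A limma 3.58.1 fit (R 4.3.3) was made per table on log2(normalized count + 1), with trended, robust eBayes, keeping genes whose mean reached 10, and 13 siRNA libraries were fitted jointly for the difference between responses. P-values are two-sided and adjusted by Benjamini-Hochberg over all genes tested, and calls are at 0.05. A fold change on this scale understates the change of genes with low counts. Planning had assumed normalized counts in all tables. Alternatives were quantile normalization, a replicate block, eBayes without trend, a pseudocount of 8, a minimum mean of 50 or none, edgeR 4.0.16 (TMM) and DESeq2 1.42.0 on the recovered reads, an adjusted p under 0.01, only the compared groups, and leaving out each library. The comparison of siSCIRT 1 with siSCIRT 2 was added after the values were seen. The fits were also run on simulated counts, with the same dispersion for every gene and no shift shared by the members of a library. The siNC libraries of the siSCIRT table did show such shifts, so that run cannot vouch for the calls given here.

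Members given with values of every library were, in each comparison, the 3 with the largest rise and the 3 with the largest fall among those called, members called against the main direction, and at least 1 of each role, and of other lists up to 4 genes with the smallest adjusted p and the RNAi targets. Others named were chosen after their values were seen.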

Additional observations from a re-analysis of the deposited data

Results flagged for a closer look

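The response of the members to siEZH2 differed from their response to siSCIRT by a test of the difference itself. In the joint limma fit of the siRNA libraries, 33 of the 39 members were called, all with the siEZH2 response above the mean siSCIRT response, where 7.75% of all genes were called in this direction. The median difference over members was 1.01 on the log2 scale. The tables come from separate experiments with their own siNC, so an effect of the experiment and an effect of the siRNA cannot be told apart.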

How the results depend on the processing

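No called member changed direction under any alternative run. The number of members called moved by more than 1.5 times in 3 comparisons. With siEZH2 it was 0 with eBayes without trend, against 20, the lowest adjusted p of a member then being 0.0652, and it ranged from 11 to 18 when 1 library was left out. All genes called higher then came to 228 without siNC replicate 1 and 327 without siNC replicate 2. With siSCIRT 2 it ranged from 20 to 34 when 1 library was left out. Between siSCIRT 1 and siSCIRT 2 it was 1 with no filter, with the replicate block, with DESeq2 and with only the compared groups, and 0 to 1 when 1 library was left out; the member was RPA1, with an adjusted p of 0.00153 under the replicate block. The cause of these shifts was not tested.

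Correlations of the deviations of libraries with the same replicate number were -0.00894 to 0.0185 in culture, -0.0854 in siEZH2 and 0.0208 to 0.299 in siSCIRT. In siSCIRT all 9 were positive, highest for replicate 1, where the 18 pairs of unlike number ran from -0.213 to 0.189. Not all 9 passed 0.1 and siNC replicate 2 correlated best with replicate 3 of siSCIRT 1. The numbers were therefore not taken to pair libraries in the main fit, and whether replicates of siSCIRT shared a batch was not tested. With the replicate block 36 members were called in 16 h spheres and 35 in 5 d spheres against adherent cells, 23 between the sphere times, 37 with siSCIRT 1, 36 with siSCIRT 2, 37 over their mean, 14 with siEZH2 and 37 for the difference between responses. The share of all genes called under the block is not given beside these counts, so they show only how the member calls moved. The fit of only the compared groups is the main one for the siSCIRT mean, for siEZH2 and for the joint fit. Depth limits PRIM1 most, at 11 reads in its lowest culture library and 35 in its lowest siEZH2 library.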

Other observations

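Histone chaperones outside the list did not all move with the members in 16 h spheres against adherent cells. Of 17 other histone chaperone genes, 7 fell and 5 rose, with a median of -0.07. ATRX, the chromatin remodeler that places histone H3.3 with DAXX, had 1509 and 1406 normalized counts in 16 h spheres against 579.5 and 591 in adherent cells (log2 1.31 ± 0.06, adjusted p = 3.39e-20). The other genes of this list that rose, named after their values were seen, were UBN1, CABIN1, DAXX and NAP1L1. DNAJC9, a chaperone of H3 and H4, fell by 1.14 (SE 0.09, adjusted p = 1.27e-13).

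Close relatives of members, named after their values were seen, had other values. ASF1A, the relative of ASF1B, had 184 and 179.5 normalized counts in 16 h spheres against 194 and 158 in adherent cells (log2 0.05 ± 0.15, adjusted p = 0.793), where ASF1B had 81.0 and 94.0 in 16 h spheres against 377 and 426 in adherent cells (log2 -2.19 ± 0.16). With siEZH2, HJURP, the chaperone of the centromeric histone, was the 1 gene of that list called, with 1065 and 934 with siEZH2 against 382 and 428 with siNC (log2 1.30 ± 0.13, adjusted p = 9.38e-19). The difference between relatives was not tested.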
